A study of Mus musculus with 12 samples.

Results

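Imprinted genes are expressed mainly from the copy inherited from one parent, and they lie in groups, the imprinted domains, each governed by a stretch of DNA whose methylation differs between the parental copies. A set of 40 such genes from 16 imprinted domains was described in J1 mouse embryonic stem cells given vitamin C (VC) or retinoic acid (RA). The genes were chosen as known imprinted genes, by symbol, and each was followed through every array probe whose transcript accession maps to it. At least 1 probe was matched for 39 of the 40, out of 20959 genes matched over both array designs, and no probe was matched for H19. The set holds 8 domains with several genes and 8 with 1 gene each. By label, 22 of its genes are paternally expressed, 17 are maternally expressed and 1, Gnas, uses different copies in different transcripts. The labels follow what is known of each gene, which for some genes may hold in certain tissues only. The copy expressed in these cells was not measured, and groupings by expressed copy below refer to the labels.

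J1 is an established mouse embryonic stem cell line, here adapted to growth on gelatin, without a feeder layer named in the labels, in a serum replacement medium with 1000 U/mL of LIF, a cytokine used to keep these cells undifferentiated. LIF was present in all 4 groups. After 24 h, total RNA was taken from cells given 50 µg of VC, 1 µL of ddH2O as its control, RA at 1 µM, or 1 µL of DMSO as its control, with 3 samples in each group and 12 in all. By its title, the series set out to find genes that VC and RA regulate in J1 cells. All samples came from 1 cell line, the medium volume behind the VC amount is not given in the labels, and nothing in them tells if the 3 samples in a group came from separate cultures, so the p-values cover the spread among these samples alone, and that spread may be technical.

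In most imprinted domains a germline methylation mark silences a promoter or a boundary element on one parental copy. A long noncoding RNA made from the unmethylated copy, such as Kcnq1ot1 or Airn, can keep neighbouring genes silent on that copy, while at H19-Igf2 an unmethylated insulator keeps enhancers away from Igf2 on the maternal copy. The zinc finger protein ZFP57, with TRIM28, protects the methylation marks in early embryos and embryonic stem cells by binding a methylated hexamer. Many paternally expressed genes, such as Igf2, Dlk1, Mest and Peg3, are known for roles in fetal growth or in embryonic and placental development, and several maternally expressed ones, such as Cdkn1c, Grb10, Phlda2 and Igf2r, are known to restrain growth. The probes measured both parental copies together, so a level here does not show which copy was read, and whether an imprint was kept or lost was not measured.

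A few promoter windows are shown, from domains in which the methylated germline region lies at or near a promoter and whose genes carry the results below. The windows, from RefSeq with GRCm38.p6 coordinates, run from 250 bases before to 50 bases after a transcript start, are written 5′ to 3′ on the gene's strand, and are those with the most CpG among the windows of each gene. Capitals mark the ZFP57 hexamer TGCCGC, which reads GCGGCA on the opposite strand.
Mest: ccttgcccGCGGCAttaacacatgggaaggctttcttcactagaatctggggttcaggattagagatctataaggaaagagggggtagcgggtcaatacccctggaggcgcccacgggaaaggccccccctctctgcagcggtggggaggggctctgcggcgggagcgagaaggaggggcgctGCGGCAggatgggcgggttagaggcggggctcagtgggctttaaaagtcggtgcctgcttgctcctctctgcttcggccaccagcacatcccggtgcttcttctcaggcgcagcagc
Plagl1: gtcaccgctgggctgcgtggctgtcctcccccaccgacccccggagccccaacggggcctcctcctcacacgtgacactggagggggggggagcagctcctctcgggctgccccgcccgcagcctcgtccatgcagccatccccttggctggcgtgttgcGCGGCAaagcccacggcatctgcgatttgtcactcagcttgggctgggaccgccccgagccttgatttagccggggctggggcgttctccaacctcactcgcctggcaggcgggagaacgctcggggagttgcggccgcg
Nnat: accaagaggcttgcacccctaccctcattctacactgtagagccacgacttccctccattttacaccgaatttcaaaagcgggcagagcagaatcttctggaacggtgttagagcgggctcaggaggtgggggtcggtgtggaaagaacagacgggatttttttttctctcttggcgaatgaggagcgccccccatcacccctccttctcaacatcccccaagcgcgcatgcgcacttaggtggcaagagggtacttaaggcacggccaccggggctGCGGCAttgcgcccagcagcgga
Snrpn: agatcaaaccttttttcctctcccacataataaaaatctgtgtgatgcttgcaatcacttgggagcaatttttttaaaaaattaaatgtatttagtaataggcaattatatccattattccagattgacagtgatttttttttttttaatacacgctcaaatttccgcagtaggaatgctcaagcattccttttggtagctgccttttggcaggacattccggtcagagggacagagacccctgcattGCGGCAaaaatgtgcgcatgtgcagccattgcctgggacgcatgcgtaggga
Peg3: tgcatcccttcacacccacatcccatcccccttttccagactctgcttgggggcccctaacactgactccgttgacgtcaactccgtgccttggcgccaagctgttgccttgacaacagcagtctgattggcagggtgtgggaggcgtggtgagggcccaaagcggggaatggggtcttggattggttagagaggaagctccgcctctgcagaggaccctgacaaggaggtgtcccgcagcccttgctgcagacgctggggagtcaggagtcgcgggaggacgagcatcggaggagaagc
Zrsr1: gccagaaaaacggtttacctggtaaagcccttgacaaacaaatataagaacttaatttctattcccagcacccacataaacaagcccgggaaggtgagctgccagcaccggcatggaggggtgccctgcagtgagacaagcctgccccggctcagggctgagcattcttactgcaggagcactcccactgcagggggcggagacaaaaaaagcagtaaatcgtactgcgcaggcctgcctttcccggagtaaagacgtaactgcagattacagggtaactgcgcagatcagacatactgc

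The Mest window (chr6:30737800-30738099, plus strand) holds 2 hexamers and 17 CpG. A lone hexamer lies in the windows of Plagl1 (chr10:13090582-13090881, plus strand, 26 CpG), Nnat (chr2:157559828-157560127, plus strand, 17 CpG) and Snrpn (chr7:60005150-60005449, minus strand, 7 CpG). The letters are not in the windows of Peg3 (chr7:6730370-6730669, minus strand, 13 CpG) and Zrsr1 (chr11:22971755-22972054, plus strand, 10 CpG), which says only that they are absent from these 300 bases. The Peg3 window overlaps the window of Usp29 by 263 bases on the opposite strand (chr7:6730370-6730632), so these neighbours share a bidirectional start region. Of the 40 genes, 33 matched at least 1 RefSeq window. The hexamer was found on either strand in 11 of their 48 windows (22.9%), against 11.6% of all 32851 windows of this length. Windows of a gene can overlap, as at Mest with starts at 30737800 and 30737803, so they are not independent. Counted by gene, 10 of the 33 members held it in at least 1 window, against 3527 of 27025 genes. The median number of CpG was 13.5 in a member window and 7.0 over all windows. By expressed copy, 25.9% of the windows of paternally expressed members and 23.5% of those of maternally expressed members held the hexamer. Windows of genes that rose with RA held it in 9 of 34 and windows of genes that fell with RA in 2 of 10, or 8 of 23 and 2 of 6 by gene. A match is a description of the letters, not a bound site.

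VC and ddH2O samples were on one array design and RA and DMSO samples on another, each normalized and fitted by itself, and levels are not compared across designs or between genes. Levels are given as scaled intensities, the processed signal brought to a common 75th percentile on the arrays of a design (619.6 on the VC design and 454 on the RA design). Differences are given as log2 of treated over control with the standard error (SE). A gene counted as tested when 3 or more of the 6 arrays had its brightest probe well above background, and called where the limma adjusted p over all genes tested was under 0.05. The share of probes well above background was 67.0% to 70.3% per array on the VC design and 60.9% to 65.6% on the RA design. The 3 DMSO samples lay on 1 slide and the 3 RA samples on another, so slide and treatment cannot be told apart in that comparison. On the VC design 1 slide held 2 samples of each group, and the remaining ddH2O sample and the remaining VC sample were each on a slide of their own. The signal at the 75th percentile before scaling was 606 to 609 on the DMSO arrays and 287 to 388 on the RA arrays.

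Embryonic stem cell markers were present in the controls, where all 9 markers matched on the RA design and all 8 matched on the VC design were well above background in each control sample. With RA, 8 of the 9 fell and Nanog alone was higher (1.32), with Pou5f1 at -5.05 and Esrrb at -5.96, and the summed intensity of the list went from 251460.0 to 260832 in DMSO to 37976 to 42902 in RA. All 10 primitive endoderm markers rose, with sums of 65985 to 70028 in DMSO and 108942 to 114534 in RA. Of 7 fibroblast markers tested 6 rose and 1 fell, with sums of 946 to 1021 in DMSO and 17359 to 18668 in RA, while Postn, Lum and Fap were in no sample well above background. Of 6 trophectoderm markers tested 3 rose and 2 fell, with sums of 6225 to 6473 in DMSO and 24177 to 30234 in RA and with Elf5 and Hand1 in no sample well above background. Of 6 blood and endothelial markers tested 2 rose and 2 fell, with Hbb-bs and Cdh5 in no sample well above background and sums of 4423 to 4818 in DMSO and 4563 to 7131 in RA. Of all genes tested with RA, 35.8% were called higher and 42.2% lower, and the blood and trophectoderm counts lie near these shares. The part of these marker differences in the imprinted gene results below was not tested. In bulk RNA fewer cells of a type and less RNA per cell cannot be told apart.

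With RA, imprinted genes of most domains rose. Of 37 members tested, 27 were higher in RA than in DMSO, 7 were lower and 3 (Mkrn3, Ube3a and Zrsr1) were not called, with rises of 27.9-fold for the fetal growth factor gene Igf2 and 23.3-fold for Dlk1. Which of these had the larger rise depends on the processing. The Igf2 probe was close to background in DMSO, and a normexp background correction gave log2 differences of 2.43 for Igf2 and 4.30 for Dlk1. A rise of at least 2-fold was seen for 20 members and a fall of that size for 3 (Snrpn, Ascl2 and Phlda2). Much of the transcriptome differed between RA and DMSO: 35.8% of the 16015 genes tested were called higher and 42.2% lower, 78.0% in either direction, and 17.4% were called at least 2-fold higher and 15.1% at least 2-fold lower. The median log2 difference was 1.47 over the members and -0.08 over all genes tested. The RA and DMSO samples did not overlap for 34 of the 37 members, 27 with all RA samples above (37.3% of all genes) and 7 with all RA samples below (44.4% of all genes), against 81.7% of all genes in either direction. Of the 37, 10 lay below 0, called or not, against 52.8% of all genes. Scaling on spike-in spots moved the median of all genes by -0.51 and gave 20 members higher and 10 lower (66.7% of the calls higher, against 79.4%), and median scaling moved it by -0.34. The members' median was 1.54 above that of all genes, a difference that a constant per array cannot change, and 1.36 above it with quantile normalization. All RA against DMSO calls below are limma calls over the 6 arrays, 3 a group. Every count by domain below stands beside 35.8% of all genes called higher and 42.2% called lower.

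**Figure D1:**
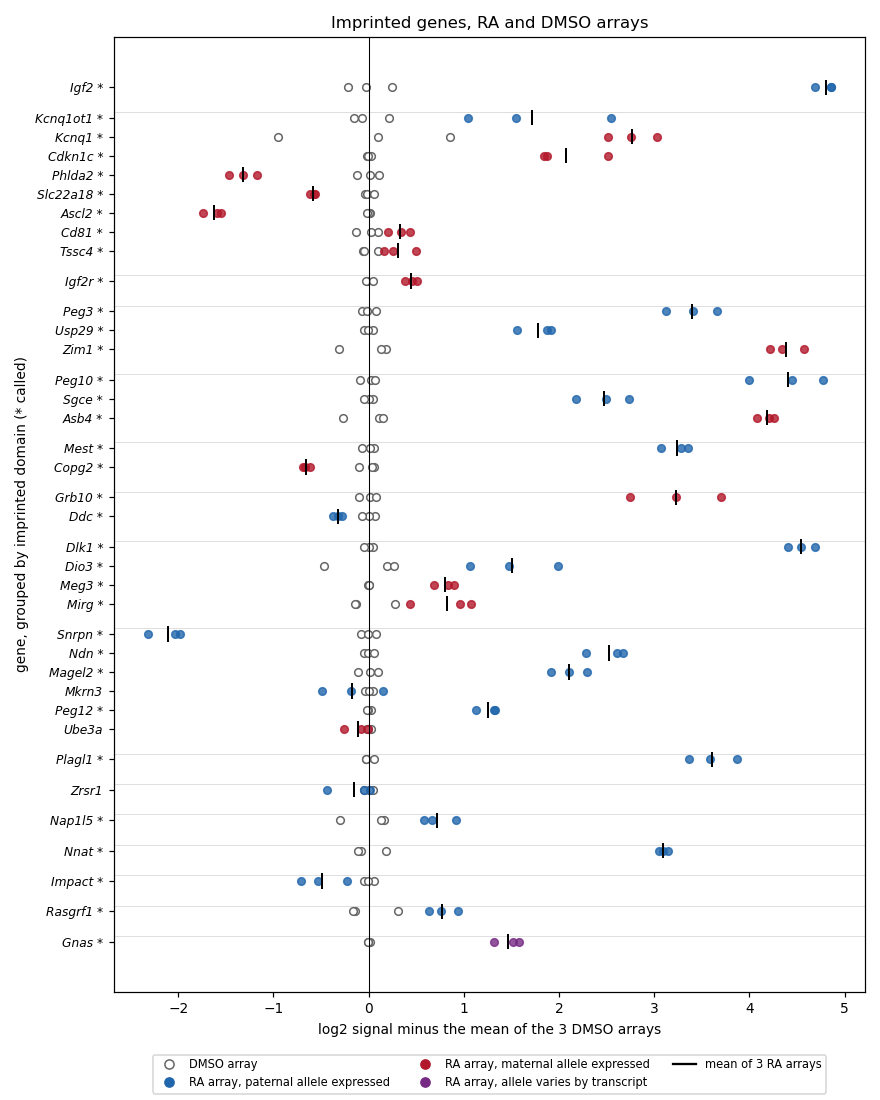
Each row is an imprinted gene tested on the RA design, grouped by domain, and each point 1 sample's log2 scaled signal minus the mean of the 3 DMSO samples, with open points for DMSO, points coloured by the expressed parental copy for RA, a bar at the mean of the RA samples and a star on called genes. The RA means of Igf2, Dlk1, Peg10, Zim1 and Asb4 lie more than 4 log2 units above their DMSO means, while those of Snrpn, Ascl2 and Phlda2 lie more than 1 unit below.

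In the H19-Igf2 domain, Igf2, which encodes the fetal growth factor IGF2, was close to background without RA. Its scaled intensity was 9.11, 11.0 and 7.97 in the DMSO samples and 268, 269 and 239 in the RA samples, and the probe was well above background in 2 of the 3 DMSO samples and all 3 RA samples. All RA samples were far above all DMSO samples, and the rise was 27.9-fold (4.80 ± 0.13 SE on the log2 scale, adjusted p = 5.51e-07, limma). With a normexp background correction, which lifts dim signals, the log2 difference was 2.43. Igf2r, a maternally expressed gene of another domain whose receptor takes up IGF2 for degradation, read 2237, 2225 and 2346 in the DMSO samples and 3218, 3122 and 2949.5 in the RA samples. Its samples did not overlap and it was 1.36-fold higher (0.45 ± 0.06 SE on the log2 scale, adjusted p = 0.000729, limma), a difference that was -0.061 with spike-in scaling.

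The Kcnq1ot1 domain, which holds 8 genes of the set, changed in both directions, with 5 higher and 3 lower. Calls in both directions were also common over all genes tested, with 35.8% called higher and 42.2% lower. Kcnq1ot1, the paternally expressed noncoding RNA of the domain, was 3.28-fold higher (log2 difference 1.71) with a wide spread among RA samples from 651 to 1838. Kcnq1, a potassium channel gene, read 10.03, 2.88 and 5.96 in the DMSO samples and 45.5, 37.7 and 31.8 in the RA samples, above background in 1 of the 3 DMSO samples. All RA samples were above all DMSO samples (2.77 ± 0.44 SE on the log2 scale, adjusted p = 0.00132, limma), and the difference was 1.12 with the normexp correction. Cdkn1c, a cyclin-dependent kinase inhibitor gene, read 2876, 2981 and 2901 in the DMSO samples and 10689, 10436 and 16654 in the RA samples. RA replicate 3 was the highest, and the rise was 4.21-fold (2.07 ± 0.18 SE on the log2 scale, adjusted p = 8.63e-05, limma). Cd81 (0.33) and Tssc4 (0.31) were slightly higher, but with spike-in scaling they lay at -0.18 and -0.20 and with median scaling at -0.0095 and -0.029. All 3 genes that fell are maternally expressed, as is every gene of this domain in the set except Kcnq1ot1. Ascl2, a trophoblast transcription factor gene, was at -1.63 on the log2 scale. Phlda2, a growth restraining gene, was at -1.32, and Slc22a18, a membrane transporter gene, was at -0.58.

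All 3 genes of the Peg3 domain rose, both those known for paternal and the one known for maternal expression. Peg3, a paternally expressed zinc finger gene, read 239, 215 and 224 in the DMSO samples and 1964, 2845 and 2396 in the RA samples. Its samples were far apart and it was 10.5-fold higher (3.40 ± 0.14 SE on the log2 scale, adjusted p = 3.09e-06, limma), with its other probe at 3.73. Zim1, a maternally expressed zinc finger gene beside it, read 11.1, 7.84 and 10.66 in the DMSO samples and 199, 182 and 233 in the RA samples, and its probe was well above background in 2 of the 3 DMSO samples. It was 20.8-fold higher (4.38 ± 0.16 SE on the log2 scale, adjusted p = 1.99e-06, limma), or 2.14 on the log2 scale with the normexp correction. Usp29, which shares the start region of Peg3 shown above, was 3.44-fold higher (log2 difference 1.78, SE 0.11), or 1.11 with normexp.

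The Peg10-Sgce domain also rose throughout. Peg10, a retrotransposon-derived gene needed in the placenta, read 92.8, 95.2 and 85.6 in the DMSO samples and 1982, 1449 and 2484 in the RA samples. No DMSO sample came near the RA samples, and the rise was 21.1-fold (4.40 ± 0.19 SE on the log2 scale, adjusted p = 4.04e-06, limma), or 3.77 with normexp. Asb4, a maternally expressed gene of the same region, read 64.8, 49.9 and 66.9 in the DMSO samples and 1106, 1152 and 1017 in the RA samples. Its brightest probe was 18.2-fold higher (4.18 ± 0.13 SE on the log2 scale, adjusted p = 9.24e-07, limma), while its other detected probe gave 1.303 and normexp gave 3.29 on the brightest one. Sgce, which encodes epsilon-sarcoglycan and starts beside Peg10, was 5.53-fold higher (log2 difference 2.47, SE 0.14).

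The Mest and Grb10 domains each held 1 gene that rose and 1 that fell. Over all genes tested, 35.8% were called higher and 42.2% lower. Mest, a paternally expressed gene with a hydrolase fold, whose promoter with 2 hexamers is shown above, read 6261, 6073 and 5765 in the DMSO samples and 58748, 61473 and 50590.1 in the RA samples. It was 9.41-fold higher in RA (3.23 ± 0.09 SE on the log2 scale, adjusted p = 6.74e-07, limma), and its other probes gave 2.93 and 3.38. Copg2, which overlaps Mest in the genome and encodes a coat protein of transport vesicles, read 2138, 1917 and 2107 in the DMSO samples and 1341, 1289 and 1273 in the RA samples. Its RA samples were all lower than its DMSO samples and it fell by 0.66 on the log2 scale (-0.66 ± 0.07 SE on the log2 scale, adjusted p = 0.000171, limma). Grb10, an adaptor gene that restrains growth factor signalling, read 218, 201 and 227 in the DMSO samples and 2023, 1446 and 2797 in the RA samples. It varied more among the RA samples than Mest but all were above DMSO, and it was 9.36-fold higher (3.23 ± 0.23 SE on the log2 scale, adjusted p = 3.28e-05, limma). Ddc, the gene of aromatic amino acid decarboxylase, read 3835, 3662 and 3501 in the DMSO samples and 2934, 3019.7 and 2831 in the RA samples on its brightest probe and was called lower (-0.32 ± 0.06 SE on the log2 scale, adjusted p = 0.0036, limma). Its other detected probe gave 1.40, and the mean of the probes 0.54, so the direction of Ddc depends on the probe.

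All 4 tested genes of the Dlk1-Dio3 domain rose, those known for paternal as well as those known for maternal expression. Dlk1, a paternally expressed gene for a Notch-like membrane protein, read 384, 373 and 361 in the DMSO samples and 8652, 9581 and 7875 in the RA samples. It was 23.3-fold higher (4.54 ± 0.09 SE on the log2 scale, adjusted p = 1.84e-07, limma), with its other probe at 4.44. Dio3, which encodes the enzyme that inactivates thyroid hormone, read 11.5, 7.22 and 12.0 in the DMSO samples and 27.8, 39.5 and 20.9 in the RA samples. The signal was low in all 6 samples but the groups did not overlap (1.51 ± 0.29 SE on the log2 scale, adjusted p = 0.00316, limma), and normexp gave 0.87. The maternally expressed noncoding RNAs Meg3 (0.81, SE 0.07, adjusted p = 9.5e-05) and Mirg (0.83, SE 0.20, adjusted p = 0.0093, limma) were also higher, and the calls of both were lost with spike-in scaling (0.30 and 0.32). Rtl1 was not well above background on any of the 6 arrays, and no probe on this design was matched to Rian.

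The Snrpn domain, the region of the Prader-Willi and Angelman syndromes in people, split by gene. Snrpn itself, a splicing factor gene and the host of the domain's promoter with a hexamer shown above, read 3498, 3126 and 3302 in the DMSO samples and 808, 835 and 664 in the RA samples. It fell by 2.11 on the log2 scale (-2.11 ± 0.10 SE on the log2 scale, adjusted p = 6.95e-06, limma), with its other probes between -2.04 and -1.93. Ndn, a paternally expressed MAGE-family gene known from neurons, read 176, 181 and 189 in the DMSO samples and 1161, 1109 and 884 in the RA samples, a rise of 5.74-fold (2.52 ± 0.11 SE on the log2 scale, adjusted p = 4.62e-06, limma). Magel2 of the same family (2.10) and Peg12 (1.26), both paternally expressed, were higher too. Mkrn3 (-0.18, SE 0.16, limma adjusted p = 0.342) and the ubiquitin ligase gene Ube3a (-0.11, SE 0.08, limma adjusted p = 0.232) overlapped between the groups and were not called. The paternally expressed genes of this single domain therefore lay on both sides of 0, from -2.11 to 2.52.

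Among the domains with 1 gene in the set, 6 rose, 1 fell and 1 was not called. Plagl1, a paternally expressed zinc finger gene that regulates other imprinted genes, read 359.9, 359 and 382 in the DMSO samples and 4389, 5353 and 3786 in the RA samples. It was 12.2-fold higher (3.61 ± 0.13 SE on the log2 scale, adjusted p = 1.82e-06, limma), but its 3 other probes ranged from 1.10 to 3.56. Nnat, a gene of developing neurons whose product sits in the endoplasmic reticulum, read 239, 199 and 195 in the DMSO samples and 1858, 1794 and 1744 in the RA samples. It was 8.55-fold higher (3.10 ± 0.09 SE on the log2 scale, adjusted p = 9.16e-07, limma). Gnas, which encodes the stimulatory G protein alpha subunit and other transcripts, read 12094, 11935 and 11992 in the DMSO samples and 34311, 35847 and 29832 in the RA samples. The rise was 2.77-fold (1.47 ± 0.08 SE on the log2 scale, adjusted p = 1.16e-05, limma), and the probes do not say which parental transcripts rose.

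Smaller differences were measured for the others. Nap1l5, an intronless gene like a nucleosome assembly factor, read 20.0, 27.5 and 27.0 in the DMSO samples and 46.5, 36.7 and 39.0 in the RA samples (0.72 ± 0.15 SE on the log2 scale, adjusted p = 0.00507, limma), and the call was lost with spike-in, median or quantile scaling. Rasgrf1, a Ras activating exchange factor gene, read 7.41, 7.34 and 10.1 in the DMSO samples and 12.7, 13.9 and 15.7 in the RA samples, well above background in 1 of the 3 DMSO and 2 of the 3 RA samples (0.78 ± 0.15 SE on the log2 scale, adjusted p = 0.00342, limma), and spike-in and quantile scaling took the call away. The Rasgrf1 signals were close to background in both groups, while the Nap1l5 probe was dim but well above background in all 6 samples. Impact, a translation regulator gene, read 11688, 10915 and 11189 in the DMSO samples and 7765, 9640.3 and 6899.8 in the RA samples. Its RA samples were all lower (-0.49 ± 0.13 SE on the log2 scale, adjusted p = 0.0118, limma), while its other probe gave 0.28, and the mean of the probes -0.11, without a call. Impact was called in 17 of 20 alternative fits, those with 1 sample left out included. Zrsr1, a splicing factor-like gene within an intron of Commd1, was not called (-0.16, SE 0.13, limma adjusted p = 0.296).

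By expressed copy, 16 of 21 paternally expressed members rose with RA and 3 fell, with a median log2 difference of 1.78. Of 15 maternally expressed members, 10 rose and 4 fell, with a median of 0.45. The share called higher was 76.2% on the paternal and 66.7% on the maternal side, against 35.8% of all genes. The share called lower was 14.3% and 26.7%, against 42.2% of all genes. A rise of at least 2-fold was called for 14 of 21 paternally and 5 of 15 maternally expressed members, against 17.4% of all genes. The difference between the copies was not tested, since genes of a domain share control regions and are not independent. Peg3 and Zim1, Peg10 and Asb4, and Dlk1 and Meg3 are pairs with opposite labels in 1 domain that rose together. Mest with Copg2 lay on opposite sides of 0, as did Grb10 with Ddc on its brightest probe. Kcnq1ot1 rose, as did the maternally expressed Kcnq1, Cdkn1c, Cd81 and Tssc4 of its domain, while Ascl2, Phlda2 and Slc22a18 fell.

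**Figure D2:**
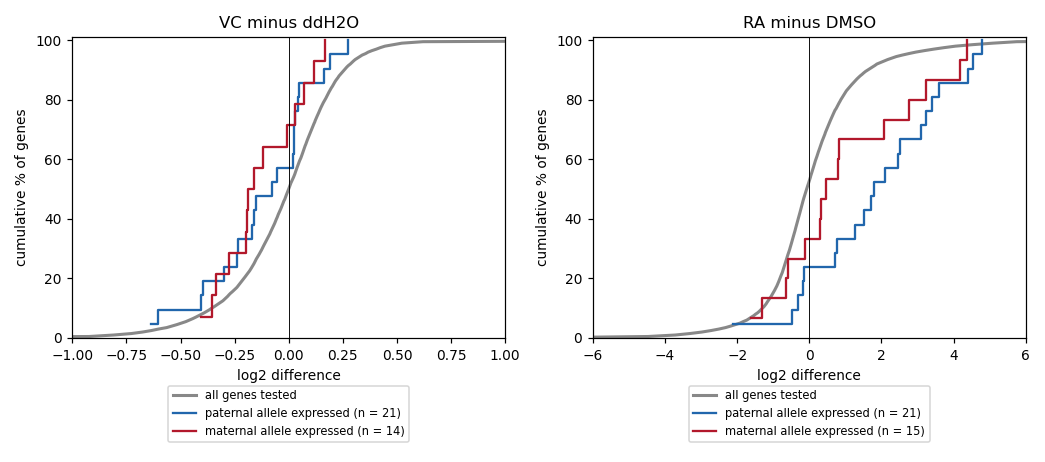
Cumulative share of genes, in percent, against the log2 difference in VC minus ddH2O (left) and RA minus DMSO (right), for all genes tested (grey) and for paternally (blue) and maternally (red) expressed members. On the right the medians are 1.78 for paternally and 0.45 for maternally expressed members against -0.08 for all genes, and on the left the medians of the members are -0.08 and -0.17.

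With VC the imprinted genes changed little, and those that passed the test mostly fell. Of 36 members tested, 7 were lower in VC than in ddH2O, 1 (Zrsr1) was higher and 28 were not called. The background was 10.5% of 14531 genes called lower, 6.41% called higher and 16.9% called in either direction, so 7 and 1 of 36 (19.4% and 2.78%) stand beside these shares. No member changed by as much as 2-fold, which was the case for 0.268% of all genes on the lower side and 0.0138% on the higher side. The median log2 difference was -0.13 over the members, and 22 of 36 lay below 0, against 50.1% of all genes. All VC samples were below all ddH2O samples for 14 members (22.0% of all genes) and above for 2 (20.0% of all genes), 16 of 36 in all against 42.0% of all genes.

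These calls rest on few samples. With 1 sample left out, Dio3 and Zrsr1 were called in 3 of 6 fits and Cdkn1c and Sgce in 2 of 6. Rasgrf1, Slc22a18 and Peg10 were called in 1 of 6 and Igf2 in 0 of 6. Without ddH2O replicate 1 or ddH2O replicate 2 no member was called, without ddH2O replicate 3 the counts were 3 lower and 1 higher, without VC replicate 1 they were 1 and 0, without VC replicate 2 they were 6 and 1, and without VC replicate 3 they were 1 and 1. Within the slide that held both groups, 24 of 36 members were below 0, against 7187 of 14499 genes over all, and between the other slides 25 members were. With the slide as a block limma called no gene among all tested, while 3846 genes and 13 members had an unadjusted p under 0.05. Spike-in scaling also gave 0 members in either direction, and differences below are given with the value within the shared slide.

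**Figure D3:**
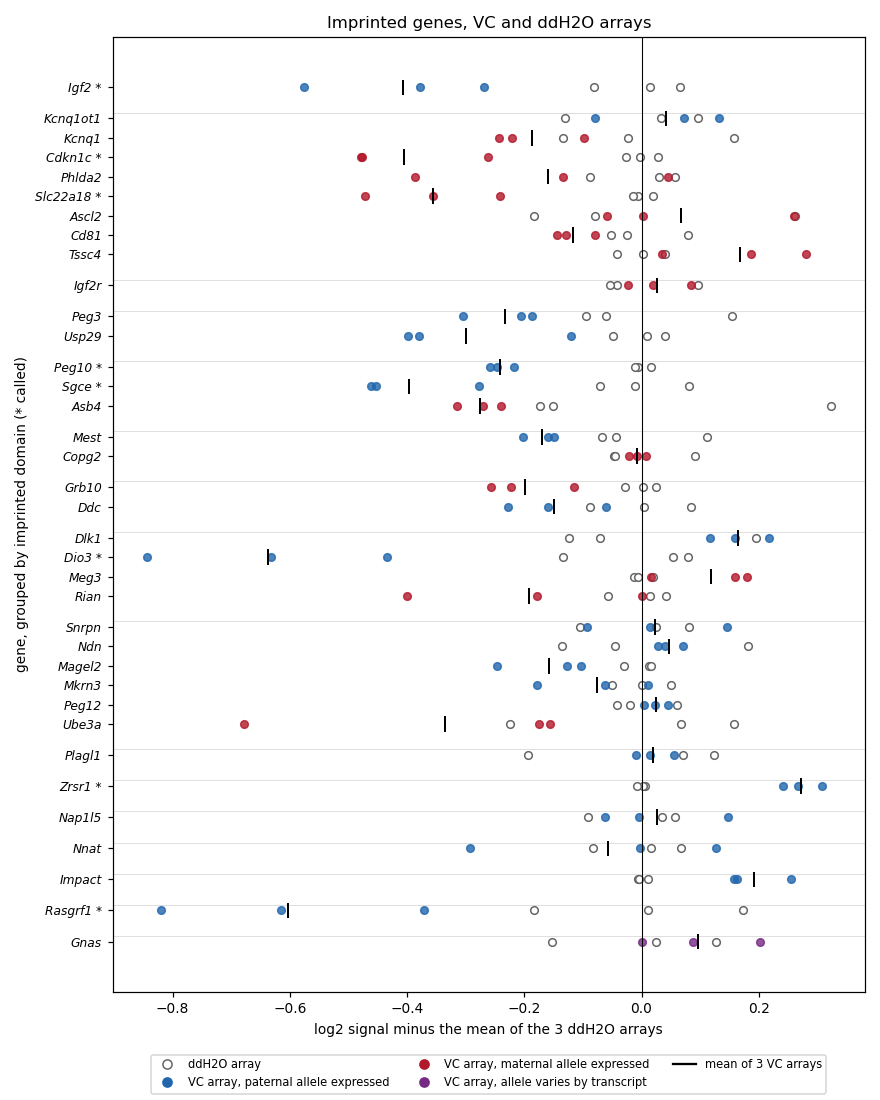
Each row is an imprinted gene tested on the VC design, grouped by domain, and each point 1 sample's log2 scaled signal minus the mean of the 3 ddH2O samples, with open points for ddH2O, points coloured by the expressed parental copy for VC, a bar at the mean of the VC samples and a star on called genes. Dio3 and Rasgrf1 lie farthest to the left, at -0.64 and -0.60, and Zrsr1, at 0.27, is the called gene on the right.

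Dio3 and Rasgrf1, both paternally expressed, had the differences of largest size among the called members. Dio3 read 104, 105 and 91.0 in the ddH2O samples and 73.9, 55.6 and 64.4 in the VC samples. All VC samples were lower, by 1.55-fold on average (-0.64 ± 0.12 SE on the log2 scale, adjusted p = 0.0199, limma; -0.61 within the shared slide). Rasgrf1 read 29.9, 38.3 and 34.2 in the ddH2O samples and 22.2, 26.2 and 19.2 in the VC samples. It was 1.52-fold lower (-0.60 ± 0.14 SE on the log2 scale, adjusted p = 0.0343, limma; -0.59 within the shared slide). Both signals are dim, and with the planned normexp correction, whose fitted background was far off on 3 arrays, the differences were 0.51 and 0.83 and not called.

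Igf2 read 120.0, 112 and 124 in the ddH2O samples and 98.6, 91.4 and 79.7 in the VC samples. The lowest sample was VC replicate 3, and the gene was 1.33-fold lower (-0.41 ± 0.09 SE on the log2 scale, adjusted p = 0.0321, limma; -0.32 within the shared slide), with its other probe at -0.38. With the planned normexp correction it lay at 0.39, not called, and it was called in 0 of the 6 fits with 1 sample left out. Cdkn1c of the Kcnq1ot1 domain read 3238, 3119 and 3169.6 in the ddH2O samples and 2278, 2649 and 2280.3 in the VC samples. All VC samples were below all ddH2O samples (-0.41 ± 0.07 SE on the log2 scale, adjusted p = 0.0201, limma; -0.36 within the shared slide). Slc22a18 of the same domain read 1276, 1253 and 1245 in the ddH2O samples and 907, 1064 and 983 in the VC samples. It was 1.28-fold lower on its brightest probe (-0.36 ± 0.07 SE on the log2 scale, adjusted p = 0.0237, limma; -0.35 within the shared slide), while its other detected probe gave -0.06. The other 6 genes of the domain were not called, with differences from -0.19 for Kcnq1 to 0.17 for Tssc4, and Kcnq1ot1 itself was at 0.04.

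In the Peg10-Sgce domain all 3 genes lay lower in every VC sample, and 2 were called. Sgce read 2203, 2067 and 1983 in the ddH2O samples and 1522, 1718 and 1512 in the VC samples and was 1.32-fold lower (-0.40 ± 0.07 SE on the log2 scale, adjusted p = 0.0212, limma; -0.32 within the shared slide), with its other probe at -0.44. Peg10, its neighbour, read 115, 115 and 117 in the ddH2O samples and 97.5, 99.5 and 96.7 in the VC samples. The spread was small and so was the difference (-0.24 ± 0.05 SE on the log2 scale, adjusted p = 0.024, limma; -0.24 within the shared slide), which was 0.50 and not called with the planned normexp correction. Asb4, the maternally expressed gene of the region, was not called (-0.28, SE 0.14, limma adjusted p = 0.206), and ddH2O replicate 2 was high at 91.4 against 65.9 and 64.8.

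Zrsr1, whose promoter window is shown above, was the member that rose. It read 902, 899.9 and 894 in the ddH2O samples and 1081, 1112 and 1061 in the VC samples. The samples did not overlap and it was 1.21-fold higher (0.27 ± 0.05 SE on the log2 scale, adjusted p = 0.0195, limma; 0.29 within the shared slide). Impact was above ddH2O in every VC sample but was not called (0.19, SE 0.05, limma adjusted p = 0.0542).

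Of the remaining multigene domains, none had a called gene besides Dio3. In the Peg3 domain Peg3 (-0.23, adjusted p = 0.0996, limma) and Usp29 (-0.30, adjusted p = 0.0617, limma) were lower in every VC sample without passing the test, and Zim1 was too dim to test on all 6 arrays. Mest (-0.17) and Grb10 (-0.20, adjusted p = 0.0642, limma) were likewise lower in every VC sample and not called, while Copg2 (-0.01) and Ddc (-0.15) overlapped ddH2O. In the Dlk1-Dio3 domain Dlk1 (0.16), Meg3 (0.12) and Rian (-0.19) were not called, and no probe on this design was matched to Mirg or Rtl1. The 6 genes of the Snrpn domain ranged from -0.34 for Ube3a, where VC replicate 3 was low at 1388, to 0.05 for Ndn, with Snrpn at 0.02, Peg12 at 0.02, Mkrn3 at -0.08 and Magel2 at -0.16. Igf2r (0.03), Plagl1 (0.02), Nap1l5 (0.03), Nnat (-0.06) and Gnas (0.10) were not called, nor were Phlda2 (-0.16), Ascl2 (0.07) and Cd81 (-0.12). By expressed copy, 5 of 21 paternally expressed members fell and 1 rose, with a median of -0.08, and 2 of 14 maternally expressed members fell, with a median of -0.17. The shares called lower were 23.8% and 14.3%, against 10.5% of all genes, and 4.76% of paternally and 0 of the maternally expressed members were called higher, against 6.41% of all genes.

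In the marker lists, of 8 embryonic stem cell markers 4 rose with VC (Zfp42, Esrrb, Klf4 and Utf1) and 0 fell, with sums of 343027 to 393888 in ddH2O and 365908 to 396920.0 in VC. In the fibroblast list 2 of 7 tested markers fell, with sums of 2329.8 to 2548 in ddH2O and 1819 to 1899 in VC and with Lum and Fap in no sample well above background. The primitive endoderm list had 2 of 9 lower (sums of 17195 to 19618 and 16533 to 19042), the trophectoderm list 2 of 5 lower (sums of 10423 to 10898 and 9433 to 9802, Gata3 not well above background), and the blood and endothelial list 0 of 4 called (sums of 400.0 to 426 and 374 to 382, Ptprc and Cdh5 not well above background). Of all genes tested with VC, 6.41% were called higher and 10.5% lower. The part of these marker differences in the imprinted gene differences was not tested.

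Across both designs, 35 members were tested in each comparison, which share no control samples. Of the 7 that fell with VC, 6 rose with RA and 1, Slc22a18, fell with RA as well. Over all genes tested with RA, 35.8% were called higher and 42.2% lower. Igf2 was at -0.41 with VC and 4.80 with RA, Peg10 at -0.24 and 4.40, Sgce at -0.40 and 2.47, Cdkn1c at -0.41 and 2.07, Dio3 at -0.64 and 1.51, and Rasgrf1 at -0.60 and 0.78. Of the members not called with VC, 19 rose and 6 fell with RA, so a rise with RA was also the usual call among them. Snrpn, which fell 4.32-fold with RA, was at 0.02 with VC, and Dlk1, which rose 23.3-fold, was at 0.16. A difference between the responses to VC and RA was not tested, because the designs were normalized separately and hold different probes.

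**Figure D4:**
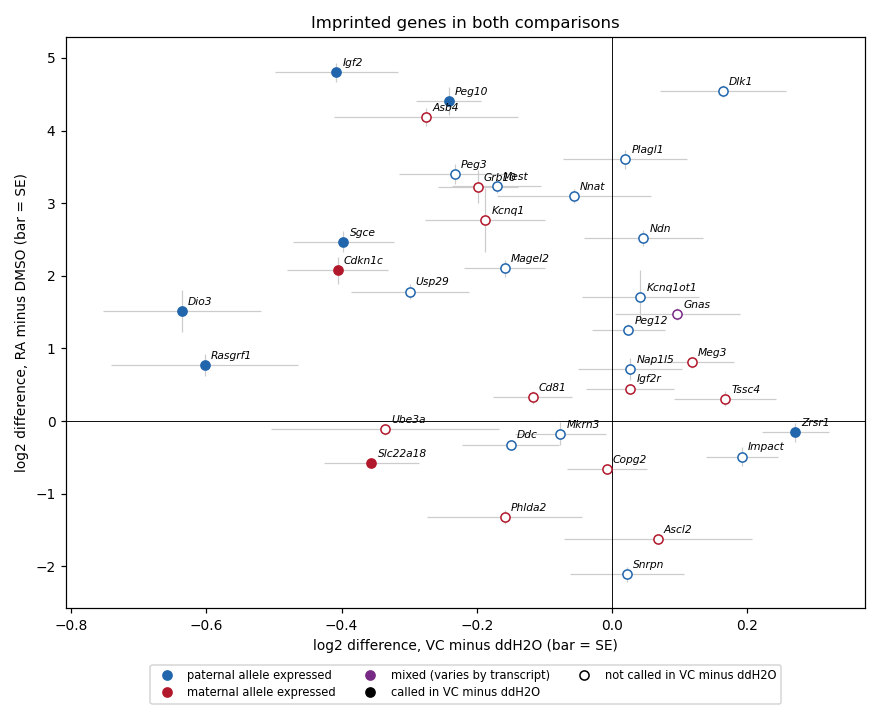
Each point is 1 of the 35 imprinted genes tested on both designs, with its log2 difference in VC minus ddH2O on the horizontal axis and in RA minus DMSO on the vertical axis, bars of 1 SE, colours for the expressed parental copy and filled points for genes called with VC. The vertical axis spans far more than the horizontal one, and 6 of the 7 genes called lower with VC lie above 0 with RA. So do 27 of the 37 members tested with RA, while 52.8% of all genes lie below 0.

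Probes of the same gene mostly gave 1 direction. On the RA design 60 of 63 member probes were detected, 18 members had several detected probes, and 15 of these gave a single sign, the exceptions being Ddc, Impact and Mkrn3. On the VC design 56 of 64 were detected, 13 members had several, and 9 gave a single sign, the exceptions being Copg2, Ddc, Plagl1 and Ube3a, none of them called. The Meg3 probes on the RA design lay at 0.81, 1.09 and 1.61, and those of Kcnq1ot1 at 1.71 and 1.16. Probes can fall in different transcripts of a gene, and the files do not say which transcript each one reads beyond its accession.

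**Figure D5:**
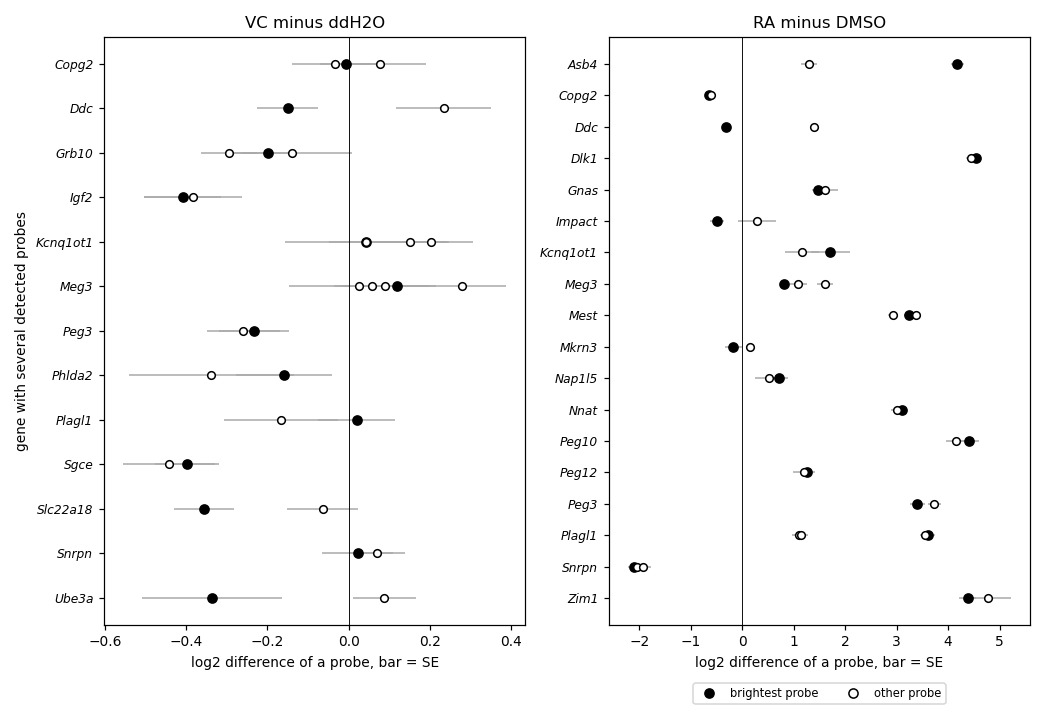
Log2 difference of each detected probe, with bars of 1 SE, for members with several detected probes, in VC minus ddH2O (left) and RA minus DMSO (right); filled points mark the brightest probe, which stands for the gene. Most probes of a gene lie together, while those of Asb4 (4.18 and 1.303) and Ddc (-0.32 and 1.40) lie apart with RA.

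A wider list of 36 other imprinted genes was read the same way. Of 30 tested, 15 rose and 8 fell with RA, where 35.8% of all genes were called higher and 42.2% lower, and the median was 0.28. Dcn, an extracellular matrix proteoglycan gene that is also in the fibroblast list, was at 4.18 (2.33 with the normexp correction), the lipid transfer gene Osbpl5 of the Kcnq1ot1 region at 2.99, and Klf14, a transcription factor gene near Mest, at 2.29 (0.99 with normexp). The Klf14 probe was close to background in DMSO, well above it in 2 of the 3 samples. Cobl, an actin nucleator gene near Grb10, was at -5.14 and Calcr, the calcitonin receptor gene near Peg10, at -1.01 (-0.31 with normexp). Tnfrsf23 was at -0.88, but its other probe gave 3.32, and the mean of its probes was 1.22. With VC, 22 were tested, 1 rose (Mcts2, 0.32) and 3 fell (Sfmbt2, -0.68; Calcr, -0.47; Osbpl5, -0.37), where 6.41% of all genes were called higher and 10.5% lower, with a median of -0.11, and Calcr lay at 0.35, not called, with the planned normexp correction. With 1 sample left out, Sfmbt2 and Calcr were still called in all 6 fits, and Mcts2 and Osbpl5 each in 1 of 6.

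Genes that protect or set imprints mostly fell with RA. Of 16 tested, 11 fell (42.2% of all genes were called lower) and 1 rose (35.8% of all genes were called higher), with a median log2 difference of -0.72. Dppa3, a maternal factor that shields methylation in the zygote, was at -4.10 on the log2 scale (-2.65 with normexp), Zfp57, which binds the hexamer shown above, was at -2.73 and Dnmt3l, a cofactor of the de novo methyltransferases, was at -2.52. The other detected probe of Zfp57 gave -0.01, and the mean of its probes -1.37. Dnmt3a, a de novo methyltransferase gene, was at 0.50, or -0.0091 with spike-in scaling. With VC, 15 were tested, with 2 called higher (6.41% of all genes) and 1 lower (10.5% of all genes), of which Zfp57 (0.74, limma adjusted p = 0.0201) and the histone methyltransferase gene Setdb1 (0.36, limma adjusted p = 0.0232) rose. With 1 sample left out, Zfp57 was still called in 2 of 6 fits and Setdb1 in 1 of 6. Dppa3 was called lower with VC (-0.30) on 5 of the 6 arrays, since a spot flagged as an outlier was left out, and with that spot kept it was at 0.19 and not called. How these factors relate to the imprinted gene levels was not tested, and DNA methylation was not measured.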

How the data were processed

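RNA from 12 samples was hybridised to one-colour Cy3 Agilent arrays of 2 designs. The deposited intensity values were made with Agilent Feature Extraction 10.7 per the submitters' processing notes (10.7.3.1 per the file headers), which subtracted background and detrended each array. The log2 values in the deposited series tables have nearly equal medians across the arrays of a design (5.96 on the VC design and 5.18 on the RA design), with the step that made them not given in the sources used here, and served as an alternative.

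Spots flagged as outliers were left out, spots of a probe were averaged, and log2 processed signal was taken minus each array's 75th percentile. Probes were named by accession through RefSeq GRCm38.p6 (27479 of 41174 matched on the VC design, 27235 of 55681 on the RA design), and the brightest probe stood for a gene. Each comparison was fitted in limma 3.58.1 (R 4.3.3) over its 6 arrays with Benjamini-Hochberg adjustment over all genes tested. The scripts were tested on simulated data. The number of arrays limits the precision. The members and lists were chosen with earlier results of these data known. Values by sample are given for members called with VC and, with RA, for up to 2 called members of a domain by size of difference; list genes named are up to 3 called in each direction. Planned normexp used the median signals.

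Same-numbered samples did not deviate together (r of -0.12 to 0.06), so numbers were not used as pairs.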

Additional observations from a re-analysis of the deposited data

How the results depend on the processing

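With VC, the 1 member called higher and 7 called lower became 0 and 0 with spike-in scaling, with normexp background correction, at an adjusted p under 0.01, with a 2-fold minimum added after seeing the data, and with the slide as a fixed block. They became 0 and 3 with a normexp correction that leaves out spots of high local background, also added after seeing the data, and 1 and 0 with no filter on dim probes. Median scaling and a variance trend each gave 2 and 7, and a filter on all 6 arrays and the slide as a random block each gave 2 and 8. Leaving out 1 sample gave 0 to 1 higher and 0 to 6 lower, and the 8 called members kept their direction in all 48 such values. With normexp, Igf2 lay at 0.39, Peg10 at 0.50, Dio3 at 0.51, Rasgrf1 at 0.83 and Calcr at 0.35 (log2). The normexp background mean fitted was -303 to -857 on 3 arrays of the VC design and -6.47 to -1.84 on the other 9 of both designs. Dppa3 lay at 0.18 in the series tables and at 0.19 with flagged spots kept. Beyond these points the cause was not tested.

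With RA, 27 higher and 7 lower became 23 and 10 under scaling on the median, 20 and 10 under scaling on spike-in spots, 25 and 5 with quantile normalization and with the series tables, and 20 and 3 with the 2-fold minimum. Leaving out 1 sample gave 25 to 27 higher and 7 to 8 lower. Median scaling put Cd81 at -0.0095 and Tssc4 at -0.029, and spike-in scaling put Cd81 at -0.18, Tssc4 at -0.20, Igf2r at -0.061 and Dnmt3a at -0.0091. The mean of probes put Ddc at 0.54 and Tnfrsf23 at 1.22. A slide block could not be fitted because each slide held 1 group. The replicate block gave 0 higher and 1 lower with VC and 26 and 7 with RA, and the numbers do not pair the samples. Probes near background, such as those of Igf2, Kcnq1, Zim1, Rasgrf1, Dio3, Klf14 and Dcn with RA, limit how exactly a fold is known.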
